A study of Mus musculus with 14 samples.

Results

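The myostatin, activin and TGF-beta pathway was described through 10 genes in differentiating C2C12 cells: the ligand genes Mstn, Inhba, Tgfb1, Tgfb2, Tgfb3 and Bmp4, the antagonist gene Fst and the receptor genes Tgfbr1, Acvr2a and Acvr2b. They were chosen by name, as the 10 rows of an expression table of 24016 transcripts that carry these symbols, and all 10 had a mean FPKM of at least 1, as did 14312 transcripts in all. C2C12 cells are mouse myoblasts of an established line that form myotubes when serum is reduced. The study asked what loss of the zinc finger transcription factor Klf5 does to this process. Cells received control siRNA (siCtrl) or a pool of siRNAs against Klf5 (siKlf5), and poly(A) RNA was sequenced on days 0, 1, 2 and 3 of differentiation in horse serum medium. Each of the 2 siRNAs gave 1 library per day, 8 in all, so no condition has a replicate. In whole cultures, fewer cells of a type and less RNA per cell cannot be told apart.

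Ligands of this family are secreted as dimers and bind a type II receptor, which recruits and phosphorylates a type I receptor. The type I receptor then phosphorylates receptor Smads, Smad2 and Smad3 for TGF-beta, activin and myostatin and Smad1, Smad5 and Smad9 for bone morphogenetic proteins (BMPs), and these enter the nucleus with Smad4. In muscle, myostatin and activins limit growth, TGF-beta restrains differentiation of cultured myoblasts, and follistatin, the product of Fst, binds activins and myostatin and keeps them from their receptors.

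The start regions of Mstn, Inhba and Bmp4 are shown because these ligand genes passed a 1.5-fold difference between siRNAs on at least 2 days each. They are the 250 bases before the annotated start, read 5′ to 3′ on the gene's strand from RefSeq on GRCm38.p6, a later build than the mm9 of the expression table. Capitals mark E-boxes, CANNTG, the motif bound by MyoD and other basic helix-loop-helix factors. They lie at chr1:53061390-53061639 (plus strand) for Mstn, chr13:16011601-16011850 (plus strand) for Inhba and chr14:46390670-46390919 (minus strand) for Bmp4.
Mstn: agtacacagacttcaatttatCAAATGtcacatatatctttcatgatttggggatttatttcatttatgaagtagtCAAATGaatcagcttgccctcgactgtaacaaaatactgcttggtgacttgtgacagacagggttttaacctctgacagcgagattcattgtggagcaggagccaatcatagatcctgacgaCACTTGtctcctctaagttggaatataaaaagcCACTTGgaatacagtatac
Inhba: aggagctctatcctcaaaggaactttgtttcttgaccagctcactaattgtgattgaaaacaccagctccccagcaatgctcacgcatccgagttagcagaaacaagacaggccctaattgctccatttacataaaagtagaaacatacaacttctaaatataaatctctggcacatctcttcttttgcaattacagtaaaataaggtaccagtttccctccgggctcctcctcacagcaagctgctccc
Bmp4: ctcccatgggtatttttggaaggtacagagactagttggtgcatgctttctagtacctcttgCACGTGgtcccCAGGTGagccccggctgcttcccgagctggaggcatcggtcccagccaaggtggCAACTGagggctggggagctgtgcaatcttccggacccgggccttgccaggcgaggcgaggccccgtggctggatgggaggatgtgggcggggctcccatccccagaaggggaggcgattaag
E-boxes numbered 4 upstream of Mstn, 0 upstream of Inhba and 3 upstream of Bmp4. Windows were matched by gene symbol. In mm9 the measured Inhba transcript starts at 16106308, whereas GENCODE starts the gene at 16103684. Whether the Inhba window lies at the start of the measured transcript was not checked. An E-box, which reads as the same pattern on both strands, is present in 66.2% of all 32851 RefSeq mouse promoters over windows of 250 bases. A GC-rich box of the kind that Klf and Sp proteins bind, searched as GGGNGGG on either strand, is present in 44.8% of them, and it occurred once upstream of Bmp4 and was not found in the Mstn and Inhba windows. Upstream of Tgfb1 this box was found 7 times and upstream of Acvr2b 4 times. In all, 8 of the 10 members had an entry. Fst and Tgfb3 had none. A match describes the letters only and is not a binding site.

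Levels are FPKM as deposited, on a scale larger than usual FPKM because each library was scaled to a total of 10000000 reads. Whole reads could be recovered from them. Those over the listed transcripts, which are not library totals, numbered between 7850497 (siCtrl, day 1) and 20301506 (siCtrl, day 2). Klf5 FPKM was 223.8, 381.1, 614.4 and 933.1 in siCtrl and 35.1, 159.6, 192.1 and 211.4 in siKlf5 cells on days 0 to 3, so the target was lower on every day. Over the 4 days the log2 difference was -1.94 (SE 0.20, limma adjusted p = 0.0244), a call that was lost when any 1 day was left out (adjusted p = 0.296 to 0.693), with no filter on low values (adjusted p = 0.561) and with a pseudocount of 0.01 (adjusted p = 0.0538). The 7 markers of myoblasts and myotubes summed to between 3105 and 13094 FPKM in siCtrl and between 2651 and 12363 FPKM in siKlf5 libraries. Endothelial markers summed to at most 1.04 FPKM. The 3 fibroblast markers summed to 15.0 to 83.8 FPKM in siCtrl and 8.04 to 64.0 FPKM in siKlf5 libraries, mostly from Dpt and Pdgfra, with Thy1 at most 0.893 FPKM. The 3 adipocyte markers summed to 14.5 to 35.0 and 10.6 to 35.4 FPKM, mostly from Cebpa, with Plin1 at 0 in all libraries. The 2 immune markers found summed to 6.76 to 10.2 and 2.10 to 24.2 FPKM, nearly all from Cd68, and the neural markers to 278 to 704 and 273 to 462 FPKM, nearly all from Tubb3.

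The members spanned a wide range of levels. Tgfb3 had the highest mean FPKM over the 8 libraries, 404.7, above 90.6% of the expressed transcripts, whose median was 74.0. Tgfb1 (189.7), Fst (111.9) and Inhba (83.3) followed. Acvr2a (51.8), Tgfbr1 (48.5) and Tgfb2 (44.8) formed a middle group whose ranges over the libraries overlapped, so their order was not fixed. The ranges of Tgfb3 (152.9 to 671.6) and Tgfb1 (147.2 to 232.3) overlapped as well. Bmp4 (11.3), Acvr2b (3.90) and Mstn (1.44) were the lowest. Tgfb3 ranked first in all 8 libraries, whereas Fst rose from rank 8 of 10 on day 0 to rank 2 on day 3 in siCtrl cells and to rank 4 in siKlf5 cells.

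**Figure D1:**
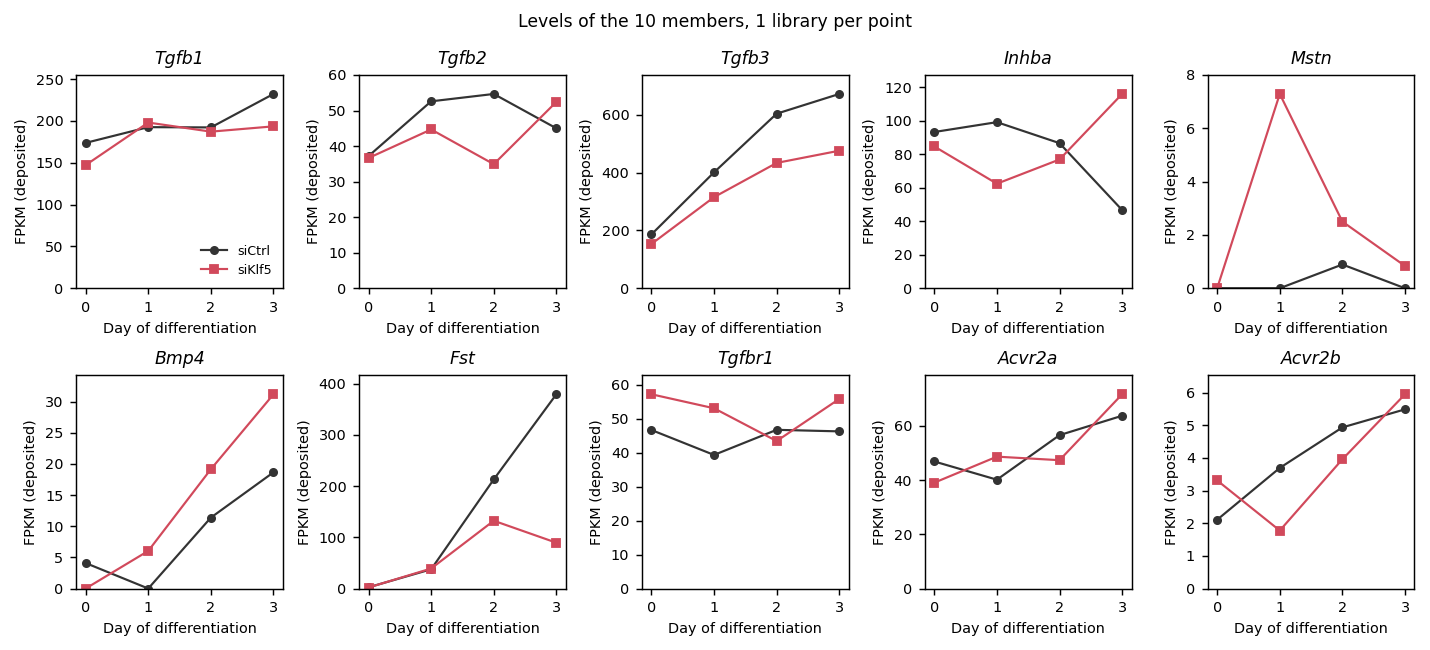
Deposited FPKM of each member (vertical axis, each panel with its own scale from 0) on days 0 to 3 of differentiation, with 1 library per point, siCtrl in black circles and siKlf5 in red squares. Fst reached 379.3 in siCtrl and 89.4 in siKlf5 cells on day 3, whereas the Tgfb1 and Tgfbr1 lines stayed close together.

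Among the TGF-beta ligand genes, Tgfb3 rose with differentiation in both series and was lower after Klf5 siRNA on each day. It was measured on NM_009368 (mm9 chr12:87397693-87419991, minus strand). Its FPKM in siCtrl cells was 185.9, 400.6, 603.4 and 671.6 on days 0, 1, 2 and 3. In siKlf5 cells it was 152.9, 314.9, 433.2 and 475.4 on the same days. Both series were higher on each later day, and the siKlf5 value stood at 82.2, 78.6, 71.8 and 70.8% of the control value on the 4 days. From day 0 to day 3 the level rose 3.61-fold in siCtrl cells (95% interval of the log2 ratio 1.67 to 2.12) and 3.11-fold in siKlf5 cells (1.41 to 1.95). Intervals here and in what follows are exact (Clopper-Pearson), were taken on the reads after division by 6, and cover no error but that of counting. In an additive model of day and siRNA, Tgfb3 was higher on day 3 than on day 0 by 1.74 on the log2 scale (SE 0.11, limma adjusted p = 2.49e-05).

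The difference in Tgfb3 between siRNAs was small, in the same direction on each day and wider on each later day. Its change with day, -0.08 per day (SE 0.07, limma adjusted p = 0.9995), was not called. The log2 ratio of siKlf5 to siCtrl was -0.28 on day 0 (95% interval -0.60 to 0.02), -0.35 on day 1 (-0.59 to -0.09), -0.48 on day 2 (-0.64 to -0.33) and -0.50 on day 3 (-0.67 to -0.34). On days 1, 2 and 3 the interval lay below 0. The common log2 difference was -0.40 (SE 0.07, limma adjusted p = 0.172) and so missed the threshold. In limma voom on the recovered reads it was -0.42 and passed (adjusted p = 0.0186).

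Tgfb1, the gene of the prototype TGF-beta ligand, varied 1.58-fold between its lowest and highest library. It was measured on NM_011577 (mm9 chr7:26472021-26490015, plus strand), with an FPKM of 173.8, 192.6, 192.3 and 232.3 in siCtrl and 147.2, 198.1, 187.3 and 193.6 in siKlf5 cells on days 0 to 3. The 2 series overlapped, and the interval of the log2 ratio between siRNAs included 0 on all 4 days. Its day 3 level was above day 0 by 0.41 on the log2 scale (SE 0.13, limma adjusted p = 0.0432), a call that was lost with no filter on low values (adjusted p = 0.110) and without day 2 (adjusted p = 0.0818). Tgfb2 (NM_009367, mm9 chr1:188447065-188529871, minus strand) was lower still, with an FPKM of 37.2, 52.6, 54.7 and 45.0 in siCtrl and 36.6, 44.7, 34.9 and 52.4 in siKlf5 cells. On day 2 alone its interval between siRNAs excluded 0, with a log2 ratio of -0.65 (95% interval -1.14 to -0.19). Neither the day term (0.40, SE 0.27, limma adjusted p = 0.307) nor the siRNA term (-0.17, SE 0.19, limma adjusted p = 0.809) passed the threshold.

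Fst, which encodes the activin and myostatin antagonist follistatin, had the steepest rise of the members in siCtrl cells and the lowest knockdown level relative to control on day 3. It was measured on NM_001301373 (mm9 chr13:115242470-115249159, minus strand). In siCtrl cells its FPKM was 2.39, 37.6, 213.0 and 379.3 on days 0 to 3. In siKlf5 cells it was 1.97, 39.1, 132.4 and 89.4. The series matched closely on days 0 and 1 and then parted, and on day 3 the control level was above and the knockdown level below that of day 2. That last step was 1.78-fold in siCtrl cells (95% interval of the log2 ratio 0.61 to 1.06) and 0.676-fold in siKlf5 cells (-1.02 to -0.11). Against day 0, the day 3 level was 158.8-fold higher in siCtrl and 45.4-fold higher in siKlf5 cells, from only 12 and 9 reads on day 0. The additive model gave a log2 difference between day 3 and day 0 of 6.34 (SE 0.47, limma adjusted p = 6.95e-05).

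Between the siRNAs, the log2 ratio of Fst was -0.27 on day 0 (95% interval -4.75 to 3.68), 0.06 on day 1 (-0.87 to 1.00), -0.69 on day 2 (-1.02 to -0.37) and -2.08 on day 3 (-2.49 to -1.71). The siKlf5 level was thus 62.1% of control on day 2 and 23.6% on day 3. The difference common to the 4 days was -0.74 (SE 0.33, limma adjusted p = 0.528), and it was -0.30 without day 3. In limma voom on the recovered reads it was -1.24 and passed the threshold (adjusted p = 0.0157). The change of the log2 difference with day was -0.62 per day (SE 0.21, limma adjusted p = 0.918), so the widening gap was not called. The muscle markers moved over the same days, with Myog at 479 to 2293 FPKM in siCtrl and 328 to 1740 FPKM in siKlf5 libraries and Ckm reaching 1094 and 1096 FPKM, and their part in the Fst values was not tested.

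Inhba encodes the beta A subunit, which forms activin A as a dimer of itself, and its level crossed between the siRNAs. It was measured on NM_008380 (mm9 chr13:16106308-16119044, plus strand). The FPKM in siCtrl cells was 93.4, 99.3, 86.7 and 46.7 on days 0 to 3. In siKlf5 cells it was 84.8, 62.5, 77.0 and 116.1. The siKlf5 value was lower than control on days 0, 1 and 2 and higher on day 3, when the siCtrl value was the lowest of the 8 and the siKlf5 value the highest. On day 3 the ratio was 2.48-fold, a log2 ratio of 1.31 (95% interval 0.59 to 2.06), and on the other days the interval included 0. From day 2 to day 3 the level fell to 0.539-fold in siCtrl cells (95% interval of the log2 ratio -1.61 to -0.21), and in siKlf5 cells it was 1.51-fold of day 2 (-0.03 to 1.24). The common log2 difference between siRNAs was 0.08 (SE 0.28, limma adjusted p = 0.955), and without day 3 its sign turned (-0.33). Its change with day was 0.48 per day (SE 0.19, limma adjusted p = 0.9995).

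The level of the antagonist gene relative to that of the activin A gene was thus unlike on day 3. The ratio of Fst to Inhba FPKM was 0.0256, 0.378, 2.46 and 8.12 in siCtrl cells and 0.0233, 0.625, 1.72 and 0.770 in siKlf5 cells on days 0 to 3. It was higher on each later day in control cells and lower on day 3 than on day 2 in knockdown cells. The ratio leaves out Inhbb, the subunit gene of activin B, which was above Inhba on day 3 in both series. Its FPKM then was 349.5 in siCtrl and 299.7 in siKlf5 cells. The ratio of Fst to Inhba is thus not that of Fst to all activin genes. It was formed after the values were seen and is a description with no test.

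**Figure D2:**
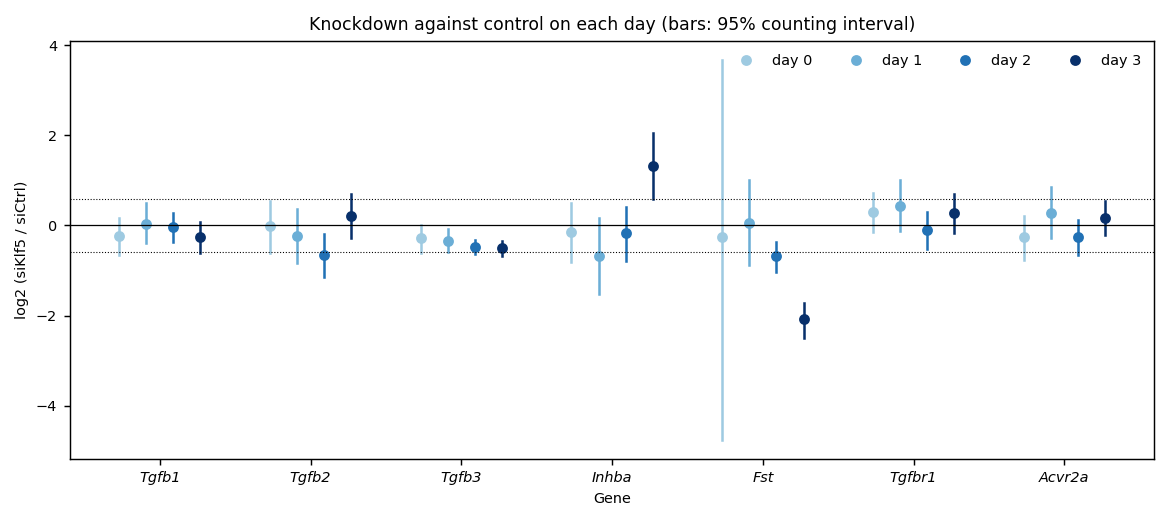
log2 ratio of siKlf5 to siCtrl FPKM (vertical axis) on days 0 to 3 (light to dark blue) for the 7 members with the most reads, with bars for the 95% counting interval and dotted lines at 1.5-fold. On day 3 the Fst point lies at -2.08 and the Inhba point at 1.31, and the Tgfb3 points lie between -0.28 and -0.50 on the 4 days.

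Mstn, the myostatin gene that limits muscle mass, was at the edge of detection. It was measured on NM_010834 (mm9 chr1:53118507-53124923, plus strand), with 51 reads in all 8 libraries. In siCtrl cells its reads numbered 0, 0, 8 and 0 on days 0 to 3, and its FPKM on day 2 was 0.89. In siKlf5 cells the reads numbered 0, 26, 13 and 4, for an FPKM of 0, 7.28, 2.50 and 0.834. Reads were thus seen in 3 of the 4 siKlf5 and 1 of the 4 siCtrl libraries. In the libraries with none, 3 reads would have given an FPKM of 0.547 to 0.874, and the log2 ratio on day 1 had a lower 95% bound of -0.47, so a difference was not detectable at this depth. Its mean passed 1 through the siKlf5 day 1 and day 2 values. The siRNA difference over the days was 2.71 on the log2 scale (SE 1.53, limma adjusted p = 0.609).

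Bmp4, a ligand of the BMP branch, was higher in siKlf5 than in siCtrl cells on days 1, 2 and 3 at low levels. It was measured on NM_007554 (mm9 chr14:47003196-47010274, minus strand), a transcript that overlaps Gm15217 on the other strand over 86 bases, and reads of both strands were counted. Its FPKM was 4.09, 0, 11.4 and 18.7 in siCtrl cells and 0, 6.04, 19.2 and 31.2 in siKlf5 cells on days 0 to 3, from 369 reads in all. Among the members and the other genes of the pathway with a mean FPKM of at least 10, it alone passed 1.5-fold in the same direction on at least 3 days. It reached that mean through its siKlf5 values, and Mstn, higher on the same 3 days, fell below it. The intervals were wide, however: the log2 ratio was 0.75 on day 2 (95% interval -0.51 to 2.00) and 0.74 on day 3 (-0.38 to 1.89). In the libraries with no reads, 3 reads would have given an FPKM of 1.18 (siCtrl, day 1) and 0.844 (siKlf5, day 0). The siRNA difference over the days was 0.51 (SE 1.53, limma adjusted p = 0.949). The rise from day 0 to day 3 was 4.56-fold in siCtrl cells (95% interval of the log2 ratio 0.28 to 4.87), and the fitted log2 difference of 5.23 (SE 2.16, limma adjusted p = 0.106), which rests on a library at 0, missed the threshold. It passed with a pseudocount of 1 (adjusted p = 0.0333) and in limma voom (adjusted p = 0.00805).

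The receptor genes among the members, Tgfbr1, Acvr2a and Acvr2b, showed no difference between siRNAs beyond counting error on any day. Outside the members this did not hold for Tgfbr2, a type II receptor gene, which was below control on days 2 and 3. Its log2 ratio was -0.27 (95% interval -0.43 to -0.13) and -0.32 (-0.50 to -0.15) there. Its intervals on days 0 and 1 included 0. Tgfbr1, the type I receptor for TGF-beta (NM_009370, mm9 chr4:47366177-47427796, plus strand), had an FPKM of 46.6, 39.3, 46.7 and 46.2 in siCtrl and 57.2, 53.0, 43.4 and 55.8 in siKlf5 cells on days 0 to 3. The siKlf5 value was the higher on days 0, 1 and 3, and every interval of the log2 ratio included 0, the widest reaching 1.01 on day 1. Over the 4 days the siRNA difference was 0.22 (SE 0.16, limma adjusted p = 0.685), and day 3 stood at -0.02 from day 0 (SE 0.23, limma adjusted p = 0.957), a sign that turned under other scalings of the libraries (0.08 with upper-quartile and 0.09 with median-ratio scaling).

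Acvr2a encodes a type II receptor of activins that also binds myostatin and BMPs (NM_007396, mm9 chr2:48669629-48758784, plus strand). Its FPKM was 46.9, 40.2, 56.6 and 63.8 in siCtrl and 39.1, 48.7, 47.4 and 71.7 in siKlf5 cells, highest on day 3 in both series. The log2 ratio between siRNAs was -0.26, 0.28, -0.26 and 0.17 on days 0 to 3, with each interval including 0, and the siRNA difference was -0.02 (SE 0.16, limma adjusted p = 0.985). The day 3 level exceeded day 0 by 0.66 on the log2 scale (SE 0.23), which missed the threshold (limma adjusted p = 0.0667) and passed with upper-quartile scaling (adjusted p = 0.0378), median-ratio scaling (adjusted p = 0.0342) and voom (adjusted p = 0.00826). The transcript shares 413 bases with Orc4 on the other strand. Acvr2b, the type II receptor that myostatin binds most tightly (NM_007397, mm9 chr9:119311619-119342624, plus strand), was close to the limit of detection, with an FPKM of 2.11, 3.69, 4.94 and 5.49 in siCtrl and 3.31, 1.78, 3.96 and 5.95 in siKlf5 cells, from 107 reads in all. Its intervals spanned more than 4-fold in either direction on every day, and neither the day term (1.08, SE 0.82, limma adjusted p = 0.363) nor the siRNA term (-0.15, SE 0.58, limma adjusted p = 0.961) passed.

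Counted over the members, calls came from differentiation and not from the siRNA difference common to the days. From day 0 to day 3, 3 of the 10 members rose (Tgfb3, Fst and Tgfb1) and none fell, beside 30.4% of the 14312 expressed transcripts called in either direction and 12.8% called higher. The count of members called is thus close to the share called among all transcripts, with all 3 in the direction of a rise. The median log2 difference was 0.87 over the members and -0.09 over all transcripts. The members with the fewest reads, Bmp4 (5.23, SE 2.16), Mstn (1.61, SE 2.16) and Acvr2b (1.08, SE 0.82), all lay above the median of 0.87 and raised it. The median over all transcripts moved to 0.01 with upper-quartile or median-ratio scaling. There 2151 and 2175 transcripts were called higher and 1878 and 1825 lower, against 1831 higher and 2516 lower in the deposited scaling. Voom called 5 of the 10 members for this contrast, beside 34.4% of all transcripts.

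For the siRNA difference over the 4 days, limma called 0 of the 10 members, beside 0.0629% of all transcripts (9 of 14312, Klf5 among them). At an unadjusted p under 0.05, 1 of the 10 members passed (Tgfb3), as did 1374 of all transcripts, and voom called 2 members (Fst and Tgfb3) beside 1.6% of all transcripts. The change of this difference with day was called for 0 of the members and 0% of all transcripts, with 2 members (Fst and Inhba) and 694 transcripts at an unadjusted p under 0.05 and 2 transcripts (0.014%) called by voom, neither of them a member. Since no condition was repeated, these models measure how far single days depart from a common pattern, not the spread between cultures.

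**Figure D3:**
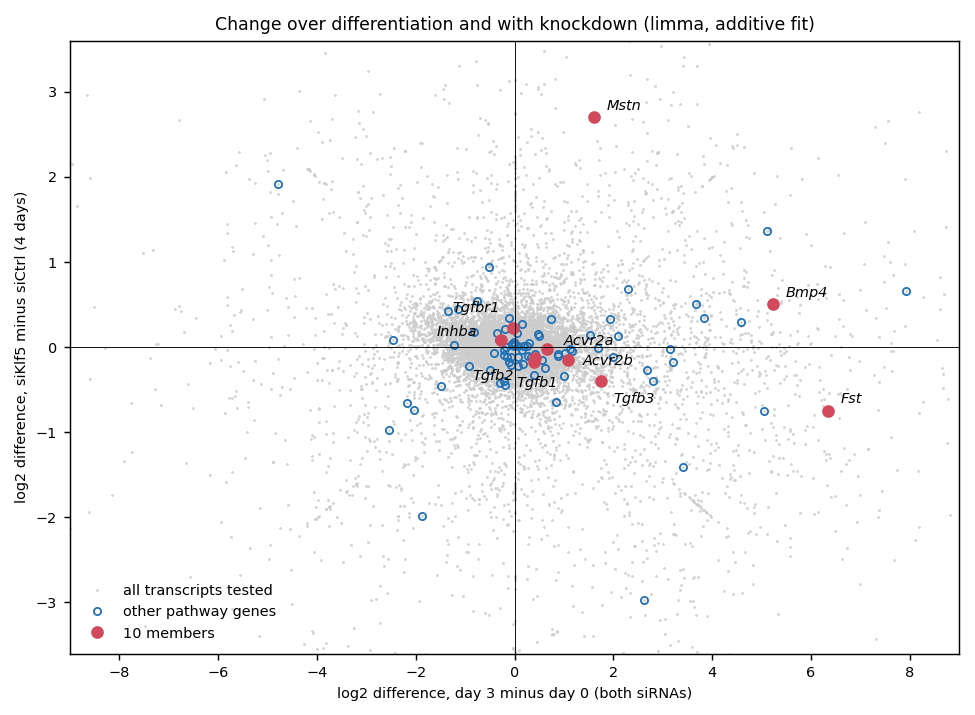
log2 difference between siKlf5 and siCtrl over the 4 days (vertical axis) against the log2 difference between day 3 and day 0 over both siRNAs (horizontal axis) from limma, for all expressed transcripts (grey; 106 lie outside the axes), the other genes of the pathway (blue rings) and the 10 members (red). Fst lies far to the right at 6.34 and below 0 at -0.74, Tgfb3 at 1.74 and -0.40, and Mstn and Bmp4 rest on few reads.

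Day by day, 2 of the 10 members were past 1.5-fold between siRNAs on day 0 and 4 on each later day. Mstn, Bmp4 and Acvr2b, the members with the fewest reads, made up both of those on day 0, 3 of 4 on day 1 and 2 of 4 on days 2 and 3. On day 0 Bmp4 was lower and Acvr2b higher in siKlf5 cells, beside 11.1% of all expressed transcripts past 1.5-fold lower and 9.22% higher. On day 1 Inhba and Acvr2b were lower and Mstn and Bmp4 higher, beside 11% lower and 16.4% higher. On day 2 Fst and Tgfb2 were lower and Mstn and Bmp4 higher, beside 13% lower and 7.69% higher. On day 3 Fst alone was lower and Mstn, Inhba and Bmp4 were higher, beside 12.5% lower and 10.7% higher. Of these, the interval excluded 0 only for Fst and Tgfb2 on day 2 and for Fst and Inhba on day 3. The median log2 ratio over the 10 members was -0.19, 0.05, -0.21 and 0.19 on days 0 to 3, with 0.00, 0.03, -0.03 and 0.00 over all expressed transcripts.

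The rest of the pathway was followed through a list of 115 further genes sorted by role, of which 80 were expressed. From day 0 to day 3, 21 of the 80 rose and 7 fell, beside 12.8% of all transcripts called higher and 17.6% called lower. The same shares stand beside the counts by role that follow. Called genes made up 35% of the list, against 30.4% of all transcripts. None of the 80 was called for the siRNA difference (11 at an unadjusted p under 0.05, and 1 by voom) or for its change with day (9 at an unadjusted p under 0.05). Of all 14312 transcripts, 1374 had an unadjusted p under 0.05 for the siRNA difference and 694 for its change with day. Voom called 1.6% of them for the siRNA difference.

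Among the other ligands, 4 of 9 expressed genes rose and 1 fell. Inhbb, the subunit gene of activin B, rose from 21.0 to 349.5 FPKM in siCtrl and from 24.3 to 299.7 FPKM in siKlf5 cells (log2 difference 3.83, SE 0.26, limma adjusted p = 4.62e-05). Gdf5, a BMP-type ligand, rose from 0 to 142.5 and from 1.45 to 64.3 FPKM (7.93, SE 1.09, limma adjusted p = 0.00137), and Gdf1 rose by 3.67 on the log2 scale. Gdf15, a stress-induced ligand, fell from 562.4 to 70.9 and from 415.3 to 108.0 FPKM (log2 difference -2.46, SE 0.45, limma adjusted p = 0.00511). With Inhba at 46.7 and Inhbb at 349.5 FPKM on day 3 in control cells, the activin B subunit gene was the higher of the pair there, as it was in siKlf5 cells (299.7 against 116.1 FPKM), whereas on day 0 Inhba was the higher in both.

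Of the receptor genes outside the members Tgfbr2 alone was called, and the co-receptor and antagonist genes that were called all rose. None of 3 type I receptor genes was called, and of 3 type II receptor genes Tgfbr2, which TGF-beta binds first, rose from 190.8 to 409.7 FPKM in siCtrl and from 208.3 to 328.8 FPKM in siKlf5 cells (log2 difference 0.88, SE 0.14, limma adjusted p = 0.00304). Of 5 co-receptor genes 3 rose, all of the repulsive guidance molecule family that binds BMPs: Hfe2, the hemojuvelin gene, from 33.5 to 941.7 and from 43.6 to 894.9 FPKM (log2 difference 4.58, SE 0.16, limma adjusted p = 2.19e-06), Rgma (2.00) and Rgmb (1.17). Of 11 secreted antagonist genes 4 rose and none fell. They included Dcn, whose product decorin binds TGF-beta, from 65.8 to 674.5 and from 60.5 to 502.3 FPKM (log2 difference 3.20, SE 0.14, limma adjusted p = 5.37e-06), and the BMP antagonist gene Chrd, from 30.7 to 249.8 and from 23.1 to 139.0 FPKM (2.80, SE 0.27, limma adjusted p = 2.32e-04).

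On day 3 Chrd stood at 55.6% of control in siKlf5 cells, a log2 ratio of -0.85 (95% interval -1.16 to -0.55), and Gdf5 at 45.1% (-1.15, 95% interval -1.69 to -0.64). Dcn was at 74.5% (-0.43, 95% interval -0.65 to -0.21) and Inhbb at 85.7% (-0.22, 95% interval -0.43 to -0.04). Itgb6, an integrin subunit gene that also rose, was by contrast at 161.1% of control (0.69, 95% interval 0.31 to 1.06). The log2 ratio was -0.07 for Hfe2 and 0.29 for Gdf1, with intervals that included 0. The genes with the largest rises outside the members thus stood on either side of control on day 3. Earlier days were not always alike. Inhbb was at 203.9% of control on day 1 (1.03, 95% interval 0.63 to 1.46) and 126.2% on day 2 (0.34, 0.13 to 0.52). Hfe2 was at 153.6% on day 1 (0.62, 0.32 to 0.94) and 120.7% on day 2 (0.27, 0.10 to 0.43). Chrd (-0.63, -0.93 to -0.37) and Dcn (-0.27, -0.48 to -0.07) were below control on day 2 as on day 3.

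Genes for latency and activation of TGF-beta split. Of 10, 3 rose, Itgb6 (log2 difference 3.15), the thrombospondin gene Thbs1 (1.68) and the fibrillin gene Fbn1 (1.12), and 1 fell, the latent TGF-beta binding protein gene Ltbp1 (-0.92). None of the 4 genes of processing proteases was called. Of 16 Smads and their regulators, Smad3 rose (0.88, SE 0.14, limma adjusted p = 0.00256) and the inhibitory Smad7 fell (-1.15, SE 0.32, limma adjusted p = 0.0285). On day 3 Smad7 was at 16.8 FPKM in siCtrl and 32.9 FPKM in siKlf5 cells (log2 ratio 0.96, 95% interval 0.22 to 1.72).

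Reported targets of the 2 branches were counted in the same way, beside 12.8% of all transcripts called higher and 17.6% called lower. Of 11 targets of TGF-beta or activin, 5 rose and 1 fell. Those with the largest rises were the smooth muscle and matrix genes Tagln (log2 difference 2.30), Col1a1 (2.10) and Acta2 (1.53). Of 8 BMP targets none rose and 3 fell, the helix-loop-helix inhibitor genes Id2 (-1.49), Id3 (-1.35) and Id1 (-1.22). The median log2 difference was 0.50 over the 11 and -1.28 over the 8. Msx2 (-4.78, SE 1.65) and Id4 (-2.55, SE 2.31), BMP targets with few or no reads in most libraries, were not called. Both lay below -1.28 and lowered it, whereas Hey1 (-0.30) and Msx1 (-0.0026) lay closer to 0. Among the 11, Tgfbi (3.40, SE 1.17), also of few reads and not called, lay above 0.50. The difference between the branches was not tested.

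**Figure D4:**
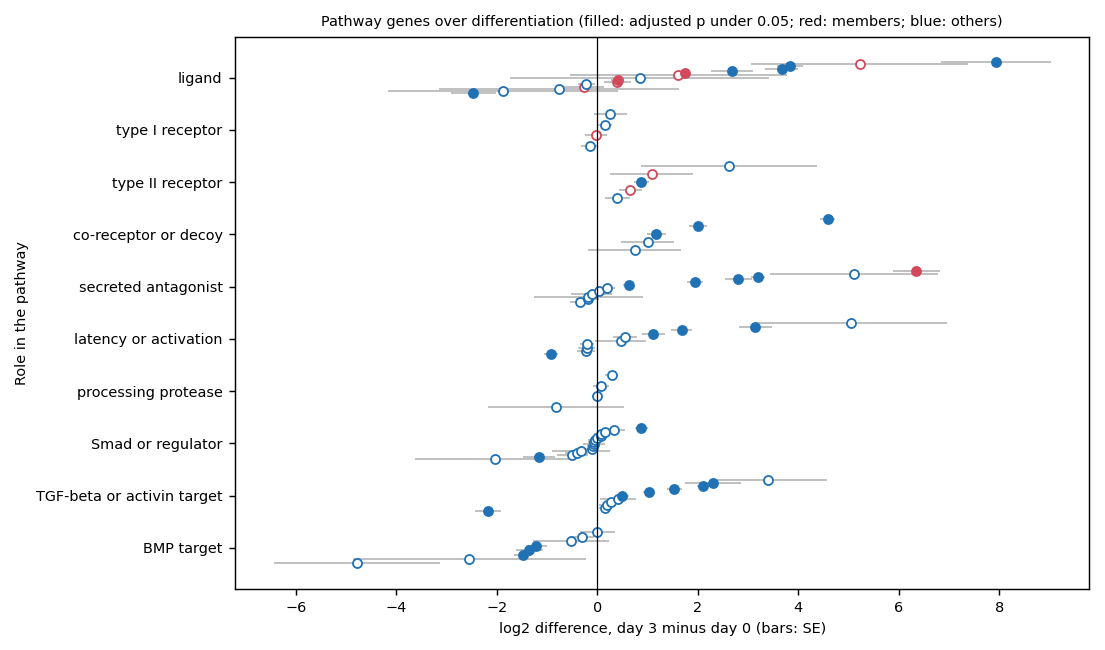
log2 difference between day 3 and day 0 (horizontal axis, bars SE) for each expressed gene of the pathway, grouped by role (vertical axis), with members in red and the other genes in blue, filled where the limma adjusted p was under 0.05. Filled points lie right of 0 among the co-receptors and antagonists and left of 0 among the BMP targets, with Fst at 6.34.

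The genes whose pattern over the 8 libraries was most like that of a member were sought for Fst and Bmp4, the members with the largest spread among those with a mean FPKM of at least 10. Of 11590 transcripts, the 5 with the highest Pearson r of log2 FPKM to Fst included Anxa11 (0.995), Ppfia4 (0.994), Cacnb1 (0.992) and Riok3 (0.991). Cacnb1, which encodes a calcium channel subunit, went from 104.3 to 743.2 FPKM in siCtrl and from 95.4 to 532.4 FPKM in siKlf5 cells between day 0 and day 3. On day 3 siCtrl and siKlf5 cells had 887.2 and 642.3 FPKM of Anxa11, 200.3 and 112.2 of Ppfia4 and 382.7 and 343.6 of Riok3. For Fst the values were 379.3 and 89.4, a wider gap in proportion. A high r to Fst thus did not mean an equal gap between siRNAs. The same measure for Bmp4 gave Gm10007 (0.990), Aldh7a1 (0.979), B430319G15Rik (0.978), Plat (0.975) and Cebpa (0.964). Bmp4 had no reads in 2 of the 8 libraries, and r was not computed without them. How far these values rest on those 2 libraries was thus not tested. The points of each correlation share the same 8 libraries and their depths.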

How the data were processed

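Poly(A) RNA from C2C12 cells was measured in 8 libraries, 1 per siRNA and day. Per the file headers and the study's methods, the authors aligned reads to mm9 with STAR and counted them over RefSeq exons with HOMER on both strands, keeping at most 3 reads per position and 1 transcript per gene, and deposited FPKM scaled to a total of 10000000. The 8 log2 columns were not used, and the 6 ChIP-seq samples were not analysed here. For the RNA-seq table, tool versions are not given in the sources used here.

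Reads were recovered from FPKM and exon length, and of the 2729 to 3060 low values tried in each library 100% came within 0.1 of a whole read. Recovered depths, summed over the listed transcripts, were 12178833, 7850497, 20301506 and 12366627 reads in siCtrl on days 0 to 3. In siKlf5 they were 11136799, 8119452, 11808641 and 10864084. Transcripts with exactly 6 reads outnumbered those with 5 (471 against 64 in siCtrl on day 3), so exact 95% intervals used reads divided by 6. All transcripts with a mean FPKM of at least 1 were fitted with limma 3.58.1 (R 4.3.3) on log2(FPKM + 0.1), with day as a factor and siRNA (3 residual degrees of freedom), and with an added siRNA by day number term. Fold changes on this scale understate those of low genes. P-values were adjusted by Benjamini-Hochberg over all 14312 transcripts, with a threshold of 0.05. Nothing states separate cultures, and the residual is the departure of single days. In a test on simulated data of the siRNA difference over 24016 transcripts, 71.6% of the 95 transcripts changed 2-fold and 86.7% of the 105 changed 4-fold were recovered, with 1 false call among 14021. The simulation held counting noise only, with the same fold on every day and no departure of single days. Its changed transcripts all had a mean FPKM of at least 10. These shares are thus not the power or error rate of the fit to the real data.

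Members, gene lists and rules were chosen with earlier results of these data known. Named were all members, Klf5, the list genes called for the siRNA difference or its change with day, the 3 highest and 3 lowest of each role called between day 3 and day 0, and list genes past 1.5-fold the same way on at least 3 days with a mean of at least 10. The values of Chrd, Gdf5, Dcn, Inhbb, Itgb6, Hfe2, Gdf1, Smad7 and Tgfbr2 between siRNAs were picked after seeing them. Some genes that these rules name are not reported here. Alternatives were other pseudocounts, filters, scalings and cutoffs, limma voom on recovered reads, and leaving out each day. Promoters came from RefSeq (GRCm38.p6) and were matched by symbol; coordinates of transcripts are those of mm9, where GENCODE lists all 10 as protein coding. Intervals used scipy 1.17.1, tables pandas 2.3.3 and numpy 2.4.6, and plots matplotlib 3.10.9, under Python 3.11.15.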

Additional observations from a re-analysis of the deposited data

How the results depend on the processing

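Directions of the members were mostly kept, and few of their fitted values were called to begin with. Over the alternatives, 100 summary values stayed within 1.5 times and 21 moved. Many of the 100 were counts of 0 that stayed 0, as for members called for the siRNA difference. Of the values of single genes, Klf5 included, 370 kept their direction and side of the threshold, 7 passed it, 8 lost it and 10 changed sign. Most fitted values were not called in the main setting, so the tally says little about how stable a call is. For the siRNA difference, limma voom called 2 members, 1 other gene of the pathway and 229 transcripts against 9. No filter on low values left 0 (1435 at an unadjusted p under 0.05), and leaving out 1 day left 0 in each case (980 to 1147 at an unadjusted p under 0.05). The common difference changed sign for Inhba without day 3 (-0.33), for Acvr2a without day 0 (0.0629) and without day 2 (0.0608), for Acvr2b without day 1 (0.14) and for Bmp4 without day 1 (-1.30). For day 3 against day 0, voom called 5 members beside 34.4% of all transcripts, no filter left 17 other genes of the pathway and 2161 transcripts, and Tgfbr1 changed sign with upper-quartile scaling (0.0835), median-ratio scaling (0.0892) and voom (0.0128). This contrast cannot be had without day 0 or day 3. For the change with day, voom called 2 transcripts, and the sign turned for Mstn with voom (-0.0066) and for Tgfb1 with upper-quartile scaling (0.0025).

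Members past 1.5-fold higher on day 0 numbered 0 with a pseudocount of 1, with a 2-fold cutoff and with a mean of at least 5. Those lower on day 1 numbered 1 with a 2-fold cutoff and with a mean of at least 5, and those higher on day 1 numbered 1 with a mean of at least 5. On day 2, 0 were lower with a 2-fold cutoff, and 1 was higher with a 2-fold cutoff and with a mean of at least 5. Beyond these, Klf5, Tgfb1, Acvr2a, Bmp4, Fst and Tgfb3 gained or lost a call as given beside their values. The cause was not tested for the voom, scaling and left-out-day results; fewer samples were fitted without a day and more transcripts without the filter. Depth limits Mstn, Acvr2b and Bmp4, with 51, 107 and 369 reads in all. The siRNAs were compared within days, and the labels give no replicate numbers for any other pairing.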
